A study of Mus musculus with 4 samples.

Results

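Eicosanoids are signaling lipids that immune cells make from arachidonic acid, and the transcripts of the enzymes of their synthesis were described here in CD45+ cells from the epididymal white adipose tissue (eWAT). The 10 genes were chosen by name from the 35869 listed in the files, 5 of the cyclooxygenase branch (Ptgs1, Ptgs2, Ptges, Ptgds and Hpgds) and 5 of the lipoxygenase branch (Alox5, Alox5ap, Alox15, Ltc4s and Lta4h). Male WT C57BL/6 mice were fed either a normal diet (ND) or a high-fat diet (HFD) for 12 weeks from 8 weeks of age. CD45 microbeads were used to enrich immune cells out of the stromal vascular cells, and 2 samples per diet were sequenced. The number of mice behind each library is not stated, so the p-values measure the spread between these samples, which may be technical. Values are TPM, in which a gene's reads are divided by its length and scaled to a fixed total per sample. Levels of different genes are therefore on one scale, and each value is a share of the RNA of its sample. Duplicate reads had been removed before counting, and how much this lowered the level of each gene was not measured.

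In the cyclooxygenase branch, Ptgs1 and Ptgs2 (cyclooxygenase 1 and 2) turn arachidonic acid into prostaglandin H, the parent of all prostanoids. Terminal synthases then split the pathway, with Ptges (microsomal prostaglandin E synthase 1) making prostaglandin E and Ptgds and Hpgds (the lipocalin-type and the hematopoietic synthase) making prostaglandin D. In the lipoxygenase branch, Alox5 (5-lipoxygenase) works with its membrane partner Alox5ap to make leukotriene A, which Lta4h turns into the neutrophil attractant leukotriene B and Ltc4s into the first of the cysteinyl leukotrienes. Alox15 oxygenates arachidonic acid at other carbons and takes part in the synthesis of lipoxins and other mediators of resolution. In adipose tissue, macrophages and mast cells are known sources of these lipids.

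The lipoxygenase branch was lower in HFD and the cyclooxygenase branch was split. A gene was called when its adjusted p-value in limma was under 0.05 and it changed by at least 1.5-fold on the log2(TPM + 1) scale. Of the 5 lipoxygenase genes, 4 fell and 0 rose in HFD, and of the 5 cyclooxygenase genes, 2 rose and 1 fell. Over the 16849 genes tested, 8.08% rose and 10.3% fell, 18.4% in all. All 10 genes passed the filter on low values, and 7 were called. Both HFD values lay below both ND values for 7 of the 10 genes and above them for the other 3, and over all genes tested 32.8% lay below and 34.1% above, 66.9% together. The median log2 fold change was -2.31 in the lipoxygenase branch, from -3.01 to -0.23, and 0.74 in the cyclooxygenase branch, from -2.12 to 1.54, beside 0.056 over all genes tested. These medians are the values of single genes, Alox15 and Ptgs2. With 5 in place of 1 added to the TPM, the lipoxygenase median was -1.31. Without ND replicate 1 or without ND replicate 2, 0 of the 10 genes and 0 of all genes were called in limma, with 3862 and 4024 genes at an unadjusted p under 0.05, and each of the 10 kept its direction.

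**Figure D1:**
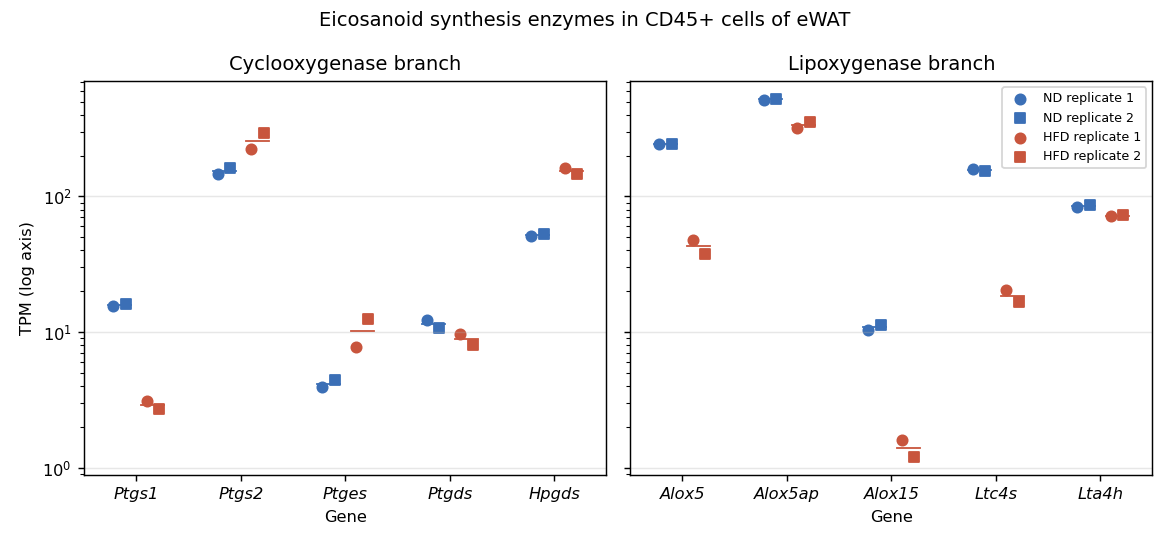
TPM (log axis) of the 10 enzymes in each sample, ND in blue and HFD in red, with circles for replicate 1, squares for replicate 2 and a line at the mean of each diet. The ND and HFD values of Alox5, Alox15, Ltc4s and Ptgs1 lie furthest apart, while those of Ptgds and Lta4h lie close together.

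**Figure D2:**
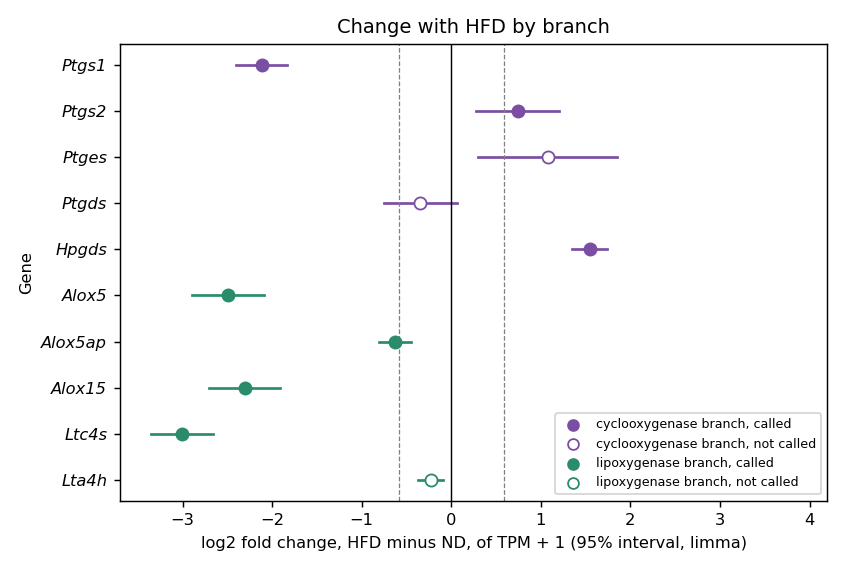
Log2 fold change of TPM + 1 between HFD and ND with its 95% interval from limma, where filled points were called and dashed lines mark 1.5-fold. All 5 lipoxygenase genes lie to the left of 0, from -3.01 to -0.23, and the cyclooxygenase genes lie on both sides.

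Before the single genes, the libraries were checked. The depth was estimated from the smallest step of the values of short microRNA genes, and it corresponds to approximately 37600000 to 46900000 counted reads per sample. The TPM of 1 read on 1 kb lay between 0.0606 and 0.0711. The spread between the ND replicates was 1.61 times their counting error and that between the HFD replicates 3.65 times, so no pair was taken as 1 library. The leukocyte gene Ptprc, which encodes CD45, stood at 54.5 and 59.4 TPM under ND and at 55.3 and 53.7 TPM under HFD. The libraries also held RNA of other cells. Summed over 6 fibroblast genes, the level was 522 and 561 TPM under ND but 2837 TPM for HFD replicate 1 and 5686 TPM for replicate 2. Summed over 4 germ cell genes, it was 1644 and 1658 TPM under ND but 6108 TPM for HFD replicate 1 and 1910 TPM for replicate 2.

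The 2 cyclooxygenases moved in opposite directions. Ptgs1, the form that many cells carry at rest, stood at 15.6 and 16.2 TPM under ND and at 3.1 and 2.7 TPM under HFD. The values of the diets were well apart, and the mean was 5.48-fold lower in HFD. The log2 fold change was -2.12 (standard error, SE, 0.10, adjusted p = 0.0053 in limma with Benjamini-Hochberg adjustment). With 5 in place of 1 added to the TPM it shrank to -1.40. By the estimate of depth these levels rest on some 863 and 1040 reads under ND, against 195 and 147 under HFD. With 2 samples per diet the smallest p of an exact two-sided permutation test is 0.333, so that test could call no single gene here.

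Ptgs2, the form that is induced in inflammation, stood at 145.0 and 160.9 TPM under ND and at 225.3 and 290.8 TPM under HFD. Both HFD samples were higher than both ND samples, and HFD replicate 2 was 1.29 times HFD replicate 1. The log2 fold change was 0.74 (SE 0.16, 95% interval 0.28 to 1.21), and the adjusted p of 0.0496 in limma lay just inside the threshold. The call of Ptgs2 was kept in only 1 of 9 other ways of processing, with adjusted p-values from 0.0353 to 0.101 in limma and a log2 fold change between 0.57 and 0.74. The call was lost with any 1 sample left out, at adjusted p-values from 0.0518 to 0.298. Ptgs2 is also an immediate early gene, of the class that answers to the digestion of a tissue within minutes. All 7 genes of a list of such genes (among them Fos, Jun and Egr1) fell in HFD, with a summed level of 19672 and 18762 TPM under ND and 10356 and 10068 TPM under HFD. Their part in the values of Ptgs2 was not tested.

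As Ptgs1 fell, Ptgs2 took a larger share of the cyclooxygenase transcripts. Of the summed TPM of both genes, Ptgs2 held 90.3% and 90.9% in ND and 98.6% and 99.1% in HFD. The diets did not overlap in this share, which was given no test.

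The promoters of the 2 cyclooxygenase genes are shown because the genes moved apart. Each line gives 150 bases before the start used by the RefSeq table for GRCm38.p6 (mm10) and the first 30 after it, written in the direction of the gene. For both genes this start is the first base of the GENCODE vM21 gene, while the RefSeq gene of Ptgs1 begins 13684 bases upstream. Capitals mark matches to the motifs named below. Ptgs1 lies on the plus strand of chromosome 2 at chr2:36230426-36252272 and the stretch is chr2:36230276-36230455. Ptgs2 lies on the plus strand of chromosome 1 at chr1:150100031-150108227 and the stretch is chr1:150099881-150100060.
Ptgs1: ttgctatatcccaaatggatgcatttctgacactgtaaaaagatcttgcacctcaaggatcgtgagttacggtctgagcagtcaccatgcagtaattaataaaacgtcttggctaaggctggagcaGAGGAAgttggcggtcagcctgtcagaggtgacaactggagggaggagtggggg
Ptgs2: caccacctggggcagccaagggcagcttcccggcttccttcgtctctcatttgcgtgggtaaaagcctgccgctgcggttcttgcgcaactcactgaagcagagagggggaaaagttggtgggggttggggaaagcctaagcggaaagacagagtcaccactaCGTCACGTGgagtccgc
Matches were sought on both strands of the whole window of 250 bases before and 50 bases after the start, which the RefSeq table held for 8 of the 10 genes. For 4 of the 8 the start in the table lies inside the GENCODE gene, by 84 bases for Ltc4s, 178 for Hpgds, 297 for Ptgds and 26566 for Ptges, so these windows lie partly or wholly within the longer transcripts. The Ptgs2 window held the cAMP response element core CGTCA at bases 14 to 18 after the start (counted from 1 at the start) and the E box CACGTG at bases 17 to 22, so the matches overlap. Of 32851 promoter windows of the same length, 20.8% held CGTCA and 7.15% held CACGTG, and among the 8 windows of these enzymes only that of Ptgs2 held either. The Ptgs1 window had the PU.1 core GAGGAA at bases 24 to 19 before the start, a sequence that 28.3% of all windows and 7 of the 8 windows of these enzymes held. An NF-kB site, which 1.47% of all windows held, was in 0 of the 8. A match is a sequence and not a measured site of binding.

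Of the synthases that use prostaglandin H, Hpgds changed most. Hpgds, the hematopoietic prostaglandin D synthase, stood at 51.1 and 53.1 TPM under ND and at 160.9 and 147.2 TPM under HFD. The HFD samples were close to each other and far above the ND samples, and the mean was 2.96-fold higher. The log2 fold change was 1.54 (SE 0.07, 95% interval 1.35 to 1.74, adjusted p = 0.00503 in limma). The gene lies on the minus strand of chromosome 6 at chr6:65117293-65144908 (GENCODE vM21) and has 6 exon blocks with 6425 bases in all.
Its window held GAGGAA at bases 49 to 44 before the start used, which is inside the gene. Neither the TATA box TATAAA, present in 13.6% of all windows, nor the GATA core AGATAA, present in 11.2%, was in any of the 8 windows.

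Mast cells, T helper 2 cells and macrophages are known to carry Hpgds. All 8 mast cell genes of a marker list fell in HFD, from a summed 1602 and 1622 TPM to 393 and 505 TPM, while Hpgds rose. The chymase Mcpt4, for example, stood at 671 and 670 TPM under ND and at 160 and 197 TPM under HFD. All 6 genes of a list for lipid-associated macrophages (Trem2, Gpnmb, Cd9, Spp1, Lpl and Fabp5) rose, from a summed 1025 and 1073 TPM to 7793 and 8165 TPM. All 6 resident macrophage genes fell, their sum in HFD being 0.313 times that in ND, and of 7 general macrophage genes 2 rose. All 3 T cell genes tested fell, their sum being 0.158 times that in ND. The part of these cells in the level of Hpgds was not tested, and in RNA of a cell mixture fewer cells of a type cannot be told apart from less RNA per cell.

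Ptgds, the lipocalin-type prostaglandin D synthase, is known from brain, heart, adipocytes and the male genital tract. It lies at chr2:25466709-25470046 on the minus strand. Its level was 12.3 and 10.7 TPM under ND and 9.7 and 8.0 TPM under HFD. The lower ND value and the higher HFD value lay close together, and the log2 fold change of -0.35 (95% interval -0.76 to 0.06, adjusted p = 0.16 in limma) did not pass the threshold. Over the same samples, 5 of 6 genes of the epididymal epithelium fell, and their summed level was 178 and 191 TPM under ND and 14.8 and 33.4 TPM under HFD. Of 5 adipocyte genes, Lep rose and Cfd fell, and the list summed to 46.3 and 44.1 TPM under ND and 21 and 14.0 TPM under HFD. Rnase10 of the epididymal list and Cfd reached 1 TPM in the ND samples only. The part of these cells in the level of Ptgds was not tested. Of the transcripts of both prostaglandin D synthases, Hpgds held 80.6% and 83.2% in ND and 94.3% and 94.9% in HFD.

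Ptges, the inducible prostaglandin E synthase (chr2:30889471-30929863, minus strand), stood at 3.9 and 4.4 TPM under ND and at 7.7 and 12.5 TPM under HFD. Both HFD values were higher than the ND values, but they differed from each other, HFD replicate 2 being 1.62 times HFD replicate 1. The log2 fold change was 1.08 (SE 0.26, 95% interval 0.30 to 1.85), and its adjusted p of 0.0649 in limma missed the threshold. Without HFD replicate 1 the log2 fold change was 1.39 with an adjusted p of 0.0398 in limma, and without HFD replicate 2 it was 0.76. The summed fibroblast genes were 2.0 times as high in HFD replicate 2 as in HFD replicate 1, the same order as Ptges and Ptgs2. The lists of epididymal epithelium (2.26 times), T cells (2.06 times), mesothelium (1.58 times), mast cells (1.29 times), B cells (1.19 times) and general macrophage genes (1.11 times) had this order as well. The reverse order was found for germ cells (0.313 times), adipocytes (0.667 times), resident macrophages (0.834 times) and eosinophils (0.862 times), and the other lists lay between 0.972 and 1.08 times. Of the 6 fibroblast genes, 4 rose in HFD and none was at 0. The part of any of these cells in the levels of Ptges and Ptgs2 was not tested.

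Alox5 and Ltc4s showed the sharpest declines of the abundant enzymes. Alox5 had 244.3 TPM in both ND samples and 47.9 and 37.8 TPM in HFD. The mean of the HFD samples was 5.70-fold lower, with a log2 fold change of -2.49 (SE 0.13, adjusted p = 0.006 in limma). The estimated reads numbered 14300 and 16600 under ND, against 3180 and 2180 under HFD. Alox5 covers chr6:116410077-116461178 on the minus strand (GENCODE vM21) and has 12 exon blocks with 4106 bases in all. In RefSeq the noncoding gene Gm38880 lies within it, and this gene stood at 8.1 and 8.4 TPM under ND and at 2.2 and 1.1 TPM under HFD. The libraries were stranded, but whether the counting was strand-specific is not given in the sources used here, so reads of the 2 genes may not be fully separated.

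Ltc4s, which commits leukotriene A to the cysteinyl leukotrienes, stood at 158.6 and 152.7 TPM under ND and at 20.4 and 16.7 TPM under HFD. The mean was 8.39-fold lower in HFD, with a log2 fold change of -3.01 (SE 0.12, 95% interval -3.35 to -2.66, adjusted p = 0.00476 in limma). The gene spans chr11:50236461-50238616 on the minus strand (GENCODE vM21), where the antisense gene Gm26542 shares 268 of its 1014 exon bases. The antisense gene Gm19719 likewise shares 189 of the 1420 exon bases of Alox5ap, and neither antisense gene had a value under its name in any sample. By log2 fold change Ltc4s ranked 28 among the 1736 genes that fell. Alox5 ranked 87, Alox15 ranked 118 and Ptgs1 ranked 160 in the same order.

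The promoter of Alox5 is shown as that of the enzyme at the head of the leukotriene pathway. It is the 180 bases at chr6:116461149-116461328 on the minus strand, and its start is the same in GENCODE and RefSeq.
Alox5: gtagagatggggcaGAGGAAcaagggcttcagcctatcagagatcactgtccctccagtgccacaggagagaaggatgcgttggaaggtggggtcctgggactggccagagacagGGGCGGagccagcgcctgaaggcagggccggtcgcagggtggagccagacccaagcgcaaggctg
Alox5 held GAGGAA at bases 136 to 131 before the start and the GC box GGGCGG at bases 35 to 30, the latter a sequence in 35.7% of all windows. Ltc4s held GAGGAA on the opposite strand at bases 17 to 22 after the start used, and had no GC box match in the window. The GAGGAA core was thus found in genes of both directions, in Hpgds as in Ptgs1, Alox5 and Ltc4s.

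Alox15, a lipoxygenase known from mouse resident macrophages and eosinophils, was the least abundant gene of its branch and lies at chr11:70344152-70352031 on the minus strand. It stood at 10.4 and 11.3 TPM under ND and at 1.6 and 1.2 TPM under HFD. The HFD values were far below the ND values, at a mean 7.75-fold lower. The log2 fold change was -2.31 (SE 0.13, adjusted p = 0.00633 in limma). The HFD values rest on approximately 63.5 and 41.4 reads, and with a pseudocount of 5 in place of 1 the log2 fold change shrank to -1.31.

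Alox5ap and Lta4h, which act together with and after Alox5, differed less between the diets. Alox5ap, which presents arachidonic acid to Alox5 (chr5:149264767-149288153, plus strand), had the highest level of the 10 genes in every sample, with 516.1 and 522.9 TPM under ND and 320.3 and 351.7 TPM under HFD. Both HFD values were lower, and the log2 fold change of -0.63 (SE 0.06, adjusted p = 0.0129 in limma) lay just past 1.5-fold. Without HFD replicate 1 it was -0.56, which is under 1.5-fold. Lta4h, which leads to leukotriene B (chr10:93453411-93484875, plus strand), stood at 83.1 and 86.6 TPM under ND and at 72.0 and 72.3 TPM under HFD. The replicates of each diet were close, and the log2 fold change was -0.23 (SE 0.05, 95% interval -0.37 to -0.09, adjusted p = 0.0449 in limma), so that it was not called, being under 1.5-fold.

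The genes of one branch therefore kept no constant ratio. Alox5ap had 2.11 and 2.14 times the TPM of Alox5 in ND and 6.69 and 9.30 times in HFD. Lta4h had 0.524 and 0.567 times the TPM of Ltc4s in ND and 3.53 and 4.33 times in HFD. The order of the 2 genes that use leukotriene A was thus reversed, with Ltc4s above Lta4h in ND and below it in HFD.

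**Figure D3:**
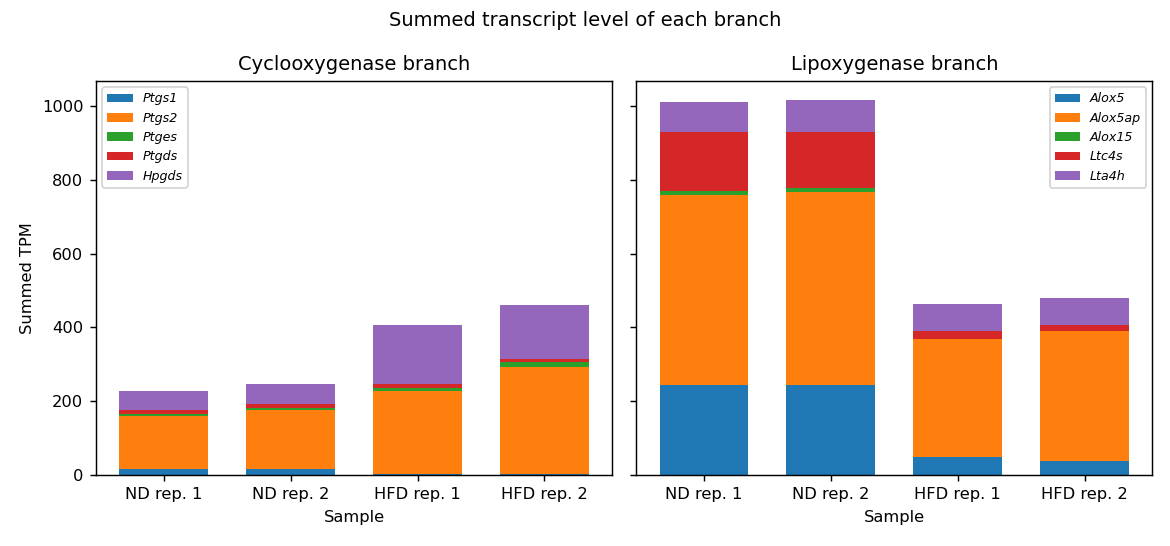
Summed TPM of the 5 genes of each branch in each sample, with each gene as a colored segment of the bar. The lipoxygenase sum goes from 1013 and 1018 TPM under ND to 462 and 480 TPM under HFD, while the cyclooxygenase sum goes from 228 and 245 TPM to 407 and 461 TPM.

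Summed over its 5 genes, the lipoxygenase branch stood at 1013 and 1018 TPM under ND and at 462 and 480 TPM under HFD. The cyclooxygenase branch stood at 228 and 245 TPM under ND and at 407 and 461 TPM under HFD. Of all transcripts of the 10 genes, the lipoxygenase branch held 81.6% and 80.6% in ND and 53.2% and 51.0% in HFD. These sums were given no test.

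The order of the levels also changed. In ND it ran from Alox5ap, Alox5, Ltc4s, Ptgs2, Lta4h, Hpgds, Ptgs1, Ptgds and Alox15 down to Ptges. The replicates of Ltc4s and Ptgs2 overlapped, as did those of Ptgds and Alox15, and the other neighbors lay apart. In HFD it ran from Alox5ap, Ptgs2, Hpgds, Lta4h, Alox5, Ltc4s, Ptges, Ptgds and Ptgs1 down to Alox15. There only Ptges and Ptgds overlapped. Alox5 moved from the second place to the fifth and Hpgds from the sixth to the third.

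The marker lists of immune cells and platelets were then set beside the genes that fell. Which of these cells carried the enzymes was not measured. Among 6 genes of resident macrophages, 6 fell, and the summed level was 3759 and 3835 TPM under ND and 1295 and 1079 TPM under HFD, a mean 3.20-fold lower. Timd4, one of them, stood at 71.5 and 76.3 TPM under ND and at 6.0 and 4.5 TPM under HFD. The 6 genes of lipid-associated macrophages all rose, and their sum in HFD was 7.61 times that in ND. The 8 mast cell genes were together 3.59-fold lower. Of 5 eosinophil genes, 2 fell (Prg2 and Il5ra), with a summed 14.8 and 16.3 TPM under ND and 8.7 and 7.5 TPM under HFD, and Epx, which encodes eosinophil peroxidase, was listed at 0 in all samples. Ccr3 of the same list was not called and stood at 2.2 and 2.8 TPM under ND and at 4.6 and 2.9 TPM under HFD. Of 6 neutrophil genes, 5 fell, with a summed 71.4 and 94.7 TPM under ND and 28.4 and 30.8 TPM under HFD, and Ly6g was at most 0.1 TPM. Il5ra, the neutrophil gene Cxcr2 and the mast cell gene Ms4a2 reached 1 TPM in the ND samples only. All 3 T cell genes in the files fell, from a summed 106 and 113 TPM to 11.3 and 23.3 TPM. All 4 B cell genes fell, from a summed 113 and 112 TPM to 22.3 and 26.5 TPM. Of 5 dendritic cell genes, Cd209a and Zbtb46 fell. Cd209a made up most of their summed level of 396 and 422 TPM under ND and 79.3 and 79.5 TPM under HFD, with 367.2 and 393.0 TPM and then 65.0 and 58.0 TPM. Of 5 platelet genes, 2 fell, Pf4, which macrophages also carry, and Itga2b, while Ppbp was at 10.1 and 11.6 TPM under ND and 5.9 and 8.4 TPM under HFD. Gp1bb was not called and went the other way, from 2.2 and 2.2 TPM to 3.4 and 3.3 TPM. Of 5 genes of large peritoneal macrophages 2 fell, and the list summed to 87.8 and 90.4 TPM under ND and 47.1 and 48.4 TPM under HFD. The part of any of these cells in the decline of Alox5, Alox15, Ltc4s and Ptgs1 was not tested.

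Of 7 general macrophage genes, 2 rose (Adgre1 and Cd68) and 0 were called lower. Csf1r stood at 313.9 and 312.4 TPM under ND and at 217.4 and 206.8 TPM under HFD, a log2 fold change of -0.56 (adjusted p = 0.00929 in limma) that is under 1.5-fold, and Mertk had a log2 fold change of -0.29. The summed level of the list was 4004 and 3991 TPM under ND and 4537 and 5053 TPM under HFD. Of 6 leukocyte genes, 1 rose (Lcp1) and 1 fell (Coro1a), and their summed level in HFD was 0.872 times that in ND.

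**Figure D4:**
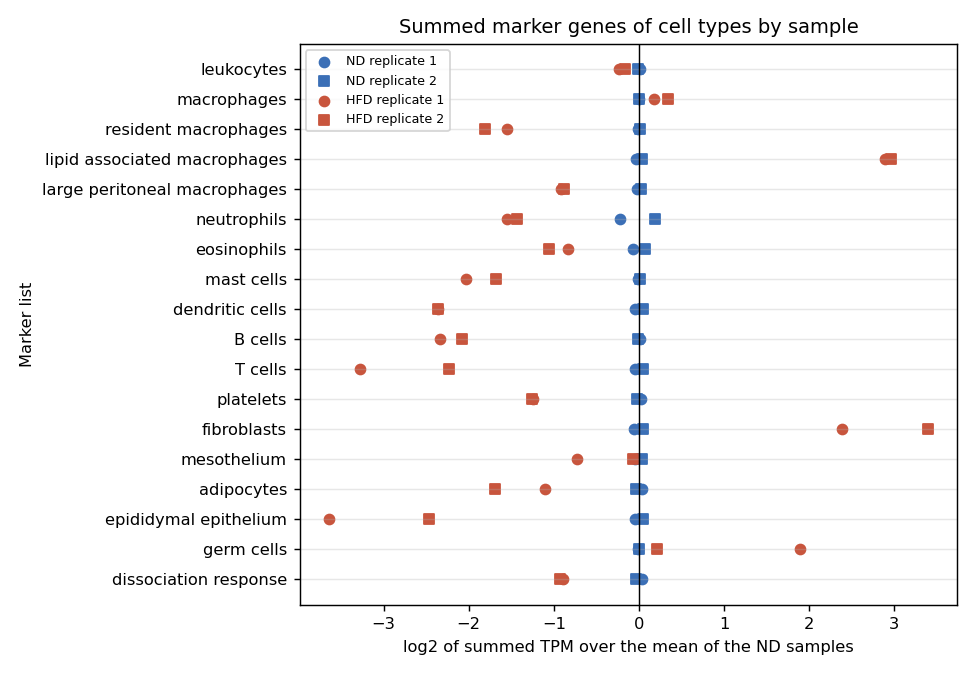
Log2 of the summed TPM of each marker list over the mean of the ND samples, with ND in blue, HFD in red, circles for replicate 1 and squares for replicate 2. The lists of epididymal epithelium, lymphocytes, dendritic cells, mast cells and resident macrophages lie furthest to the left in HFD. Those of lipid-associated macrophages and fibroblasts lie to the right, as does that of germ cells, chiefly in HFD replicate 1.

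The other genes of the eicosanoid pathway were described by lists that had been written down for this purpose. Of 50 such genes, 49 were listed in the files and 38 passed the filter on low values. Among the 38, 6 rose, 9 fell and 23 were not called, where 8.08% of all genes tested rose and 10.3% fell. Of the 9 that fell, Mgst2 and Alox8 reached 1 TPM in the ND samples only. They passed the filter only through the diet in which they were high.

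Of 7 receptor genes listed for leukotrienes, lipoxins and resolvins, 5 were tested, and 4 of the 5 fell, 3 of them leukotriene receptors and the other Cmklr1. Ltb4r1, the high-affinity receptor for leukotriene B, stood at 50.8 and 49.4 TPM under ND and at 8.0 and 7.4 TPM under HFD, a log2 fold change of -2.56 (SE 0.07, adjusted p = 0.00402 in limma). The receptors for cysteinyl leukotrienes also fell, with Cysltr1 at 25.0 and 28.7 TPM under ND and 13.4 and 12.4 TPM under HFD. Cysltr2 was lower, at 3.6 and 3.8 TPM under ND and 1.2 and 1.2 TPM under HFD. Cmklr1, a receptor for chemerin and resolvin E, stood at 102 and 104 TPM under ND and at 55.7 and 52.6 TPM under HFD. The log2 fold changes were -1.0 for Cysltr1, -1.09 for Cysltr2 and -0.91 for Cmklr1. Fpr2, a receptor for formyl peptides and lipoxin, stood at 8.8 and 12.5 TPM under ND and at 2.8 and 6.6 TPM under HFD and was not called (adjusted p = 0.157 in limma).

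Genes that export and convert leukotrienes went both ways. Of 8 genes, 7 were tested, and 1 rose and 3 fell. Dpep2, a dipeptidase that turns leukotriene D into leukotriene E, rose from 37.3 and 38.1 TPM to 95 and 96.3 TPM, a log2 fold change of 1.32 (adjusted p = 0.00449 in limma). Its relative Dpep1 stood at 19.3 and 19.6 TPM under ND and at 33.2 and 65.0 TPM under HFD, with the HFD samples far apart, and was not called (adjusted p = 0.098 in limma). Cyp4f18, which breaks down leukotriene B in mouse myeloid cells, fell from 52.3 and 49.0 TPM to 19.2 and 15.7 TPM (log2 fold change -1.49, adjusted p = 0.01 in limma). The exporter Abcc1 fell by 0.60 on the log2 scale, from 35.3 and 37.6 TPM to 22.5 and 25.1 TPM. Mgst2, a relative of Ltc4s that can make leukotriene C, fell from 1.4 and 1.3 TPM to 0.6 and 0.5 TPM. Mgst3, of the same family, was far more abundant and higher in HFD, at 74.5 and 67.9 TPM under ND and 99.9 and 111.5 TPM under HFD. Its log2 fold change of 0.56 (adjusted p = 0.0288 in limma) was under 1.5-fold. Of 5 other lipoxygenases, Alox8 alone passed the filter, and it fell from 1.1 and 1.0 TPM to 0.2 and 0.1 TPM. Alox8, like Mgst2, passed the filter through its ND values alone.

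In the prostanoid arm, receptors were not called while synthesis and breakdown genes moved in both directions. Of 9 prostanoid receptors, 5 were tested and 0 were called in limma, although 3 of them (Ptger1, Ptger4 and Ptgir) had an adjusted p under 0.05 with a change under 1.5-fold and 4, these and Ptger2, had an unadjusted p under 0.05. Ptger4, a prostaglandin E receptor, stood at 82.7 and 91.0 TPM under ND and at 63.0 and 62.0 TPM under HFD, a log2 fold change of -0.47 (95% interval -0.67 to -0.27). Ptgdr and Ptgdr2, the receptors for prostaglandin D, were at no more than 0.7 TPM in any sample and were not tested.

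Among 6 other prostanoid synthases, 2 rose and 0 fell. Akr1b3, an aldose reductase that can make prostaglandin F, rose from 279 and 287 TPM to 472 and 490 TPM, a log2 fold change of 0.76 (adjusted p = 0.00598 in limma). Cbr1, a carbonyl reductase that acts on prostaglandin E, rose from 51.2 and 49.6 TPM to 79.0 and 82.9 TPM. Tbxas1 (thromboxane synthase) stood at 34.9 and 36.4 TPM under ND and at 38.2 and 38.9 TPM under HFD, and the log2 fold change of 0.11 had an interval from -0.05 to 0.27. Ptges2 and Ptges3, the other prostaglandin E synthases, had log2 fold changes of 0.30 and 0.04 and were not called.

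Hpgd, which starts the breakdown of prostaglandins, fell from 201.5 and 212.3 TPM to 113.2 and 92.2 TPM, a log2 fold change of -1.01 (SE 0.12, adjusted p = 0.0184 in limma). Ptgr1, which reduces the products of Hpgd and also inactivates leukotriene B, rose from 19.9 and 20.3 TPM to 31.2 and 38.1 TPM (log2 fold change 0.75, adjusted p = 0.0299 in limma). The carriers Slco2a1 and Abcc4 were not called.

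Of 5 genes that supply arachidonic acid, 2 rose and 0 fell. Daglb, a lipase that makes an arachidonate-bearing monoglyceride, rose from 64.6 and 67.7 TPM to 168.7 and 154.9 TPM (log2 fold change 1.28, adjusted p = 0.0058 in limma). Lpcat3, which places arachidonate into phospholipids, rose from 38.2 and 41.6 TPM to 64.5 and 58.3 TPM (log2 fold change 0.61). Pla2g4a, the cytosolic phospholipase that frees arachidonic acid, stood at 12.3 and 14.6 TPM under ND and at 14.9 and 17.0 TPM under HFD and was not called. Of 4 genes for epoxyeicosanoids, 0 were called in limma, 2 had an adjusted p under 0.05 with a change under 1.5-fold (Cyp2j9 and Ephx1), and those 2 were also the ones with an unadjusted p under 0.05.

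**Figure D5:**
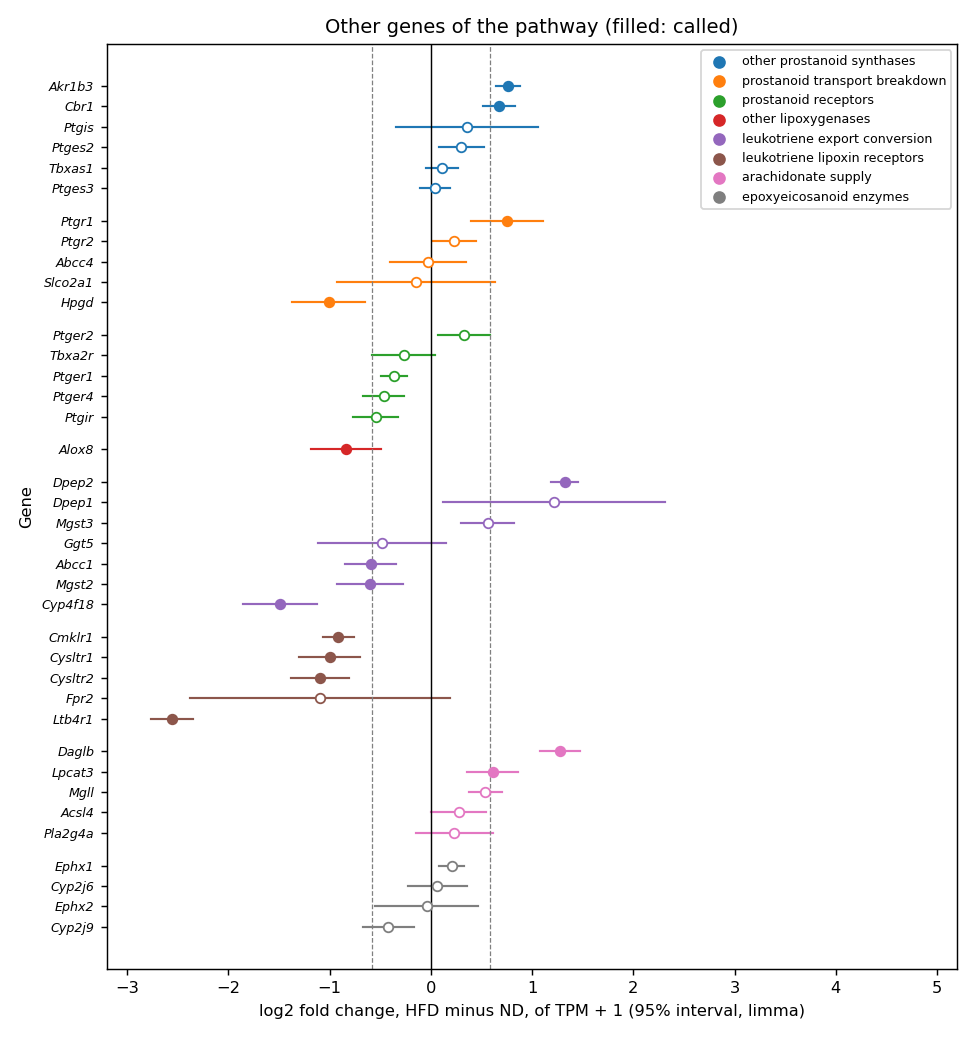
Log2 fold change of TPM + 1 between HFD and ND for the 38 other pathway genes tested, with 95% intervals from limma and colors for the lists. Filled points were called and dashed lines mark 1.5-fold. Ltb4r1 lies furthest to the left at -2.56 and Dpep2 furthest to the right at 1.32.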

How the data were processed

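RNA-seq was done on CD45+ cells of eWAT, 2 samples each from ND-fed and HFD-fed WT mice, grouped by the titles in the labels. The authors trimmed the reads of stranded mRNA libraries (Trim Galore 0.4.2, cutadapt 1.9.1), aligned them to mm10 with STAR 2.6.1e, removed duplicates with Sambamba and counted reads per gene with featureCounts 1.6.2. They deposited TPM per gene, printed to 1 decimal. The annotation and the strand setting of the counting are not given in the sources used here.

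The TPM were joined by symbol. Genes with at least 1 TPM in at least 2 samples were tested as log2(TPM + 1) with limma 3.58.1 in R 4.3.3 (variance trend), with p-values adjusted over all genes by the Benjamini-Hochberg method. Fold changes of low genes are understated by the added 1, and TPM are relative amounts. The steps were tested on simulated data. The 10 members, the lists of pathway and marker genes and the tests were chosen with earlier results of these data known. All members were named with every value, and of the other pathway genes those called, with examples of the rest. Reads per gene are approximate, from exon lengths in GENCODE vM21. Promoter sequences are from RefSeq for GRCm38.p6. Alternatives were other pseudocounts, filters, scalings and fold limits, no variance trend, a replicate block and each sample left out. Figures were drawn with matplotlib 3.10.9.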

Additional observations from a re-analysis of the deposited data

How the results depend on the processing

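No gene of the 10 changed direction under any alternative run. With 2 samples per diet, calls near the threshold are unstable. The number of enzyme genes that rose was 2, and it was 1, Hpgds alone, with a pseudocount of 0.1 or 5, no filter, no variance trend, quantile normalization, median-ratio scaling, TPM rescaled after dropping the 50 most abundant genes or a limit of 2-fold, and 3, with Ptges, among genes with a mean TPM of at least 5. The number that fell was 5 under each of these except the 2-fold limit, which left 4, and it was 6 without a fold limit, with Lta4h. The median of the lipoxygenase branch was -2.52 with a pseudocount of 0.1 and -1.31 with one of 5, which shrinks low genes, and that of the cyclooxygenase branch was 0.57 after quantile normalization. Over all genes, 3097 were called, 2015 with a pseudocount of 5 and 1602 at 2-fold. The labels give both diets replicates 1 and 2, but equal numbers did not go with shared deviations (r = -0.015 across genes). With a replicate block, 812 genes were called, 1 of the enzymes rose and 4 fell, Alox5ap being lost at an adjusted p of 0.0527 in limma. With each sample left out in turn, the enzymes that rose numbered 0 to 2, those that fell 0 to 5 and all genes called 0 to 4232. The 0 stands for the fits without ND replicate 1 or 2. Every fit with a sample left out has 1 residual degree of freedom, so this does not set them apart. With 1 ND sample the spread comes from the HFD pair alone, and the ND sample is assumed to vary like it. That pair differed by 3.65 times its counting error, and the ND pair by 1.61 times. Whether this led to the 0 was not tested. Over all 4 fits with a sample left out, the cyclooxygenase median ran from 0.56 to 0.92 and the lipoxygenase median from -2.43 to -2.19.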
